A study of Mus musculus with 4 samples.

Results

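The erythroid and embryonic globin genes described here are 9 listed symbols: the globin genes Hba-x, Hba-a1, Hbb-bh1 and Hbb-y, the heme enzyme gene Alas2, the globin chaperone gene Ahsp, the membrane transporter gene Slc4a1, and the transcription factor genes Klf1 and Gata1. They were picked by symbol from the 24971 genes of the count tables, and the counts of all RefSeq accessions of a symbol were summed. Of the 9 members, 8 had an accession in the tables, 6 had counts and the same 6 passed the low-count filter, which left 10757 tested genes. Ahsp matched no accession by name and was not analysed here. Hba-a1 and Alas2 were listed at 0 in every library.

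The libraries were made from neural tubes of C57BL/6 mouse embryos of stage E12.5. There were 2 libraries labelled WT and 2 labelled Lbx1Δ/Δ, a mutation of the homeobox gene Lbx1, and both genotypes carry the replicate numbers 1 and 2. Each library came from several tubes of a single genotype, taken from 1 litter and pooled. The labels do not say whether pools with the same number shared a litter, which part of Lbx1 was deleted, or whether blood was washed out. Lbx1 itself had 819 counts in WT library 1, 1379 in WT library 2, 1946 in mutant library 1 and 6520 in mutant library 2. This is higher in the libraries labelled mutant, so every direction below is between libraries as labelled. Total counts ranged from 16853984 to 20579803. Levels are given as CPM, counts scaled to a common library total, and 3 counts corresponded to 0.146 to 0.178 CPM. The neural markers Tubb3, Stmn2 and Nes were high in every library, while Pax6, which has several accessions, was listed at 0.

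The first red cells of the mouse embryo are primitive erythroid cells, which arise in the yolk sac and mature while circulating. Their haemoglobin joins alpha-like chains, encoded by Hba-x (zeta) and the adult-type Hba-a1 and Hba-a2, with beta-like chains, encoded by Hbb-bh1 and Hbb-y (epsilon y). As these cells mature, Hba-x gives way to the adult-type alpha genes, and Hbb-bh1 gives way to Hbb-y. Gata1 and Klf1 activate the globin, heme and membrane genes, binding GATA and CACCC sequences. Red cells reach a dissected neural tube through its vessels and the tissue around it.

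The RefSeq promoters (build GRCm38.p6) of counted members are shown to mark GATAA and CACCC in them. They run from 250 bases before to 50 bases after the start site, 5′ to 3′ on the gene's strand, with GATAA and CACCC in capitals where they occur on this strand and TTATC and GGGTG where they occur on the other. Hbb-bh1 and Slc4a1 are not shown, because the promoter set used here does not hold them. Hba-x lies at chr11:32276350-32276649 on the plus strand, Hbb-y at chr7:103853158-103853457 on the minus strand, Klf1 at chr8:84901732-84902031 on the plus strand and Gata1 at chrX:7967861-7968160 on the minus strand.
Hba-x promoter: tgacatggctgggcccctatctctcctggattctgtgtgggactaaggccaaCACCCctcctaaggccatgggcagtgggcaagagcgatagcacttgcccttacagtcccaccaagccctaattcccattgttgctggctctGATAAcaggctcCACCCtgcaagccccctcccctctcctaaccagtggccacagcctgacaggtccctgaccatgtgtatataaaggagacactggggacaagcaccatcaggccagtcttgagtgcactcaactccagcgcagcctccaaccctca
Hbb-y promoter: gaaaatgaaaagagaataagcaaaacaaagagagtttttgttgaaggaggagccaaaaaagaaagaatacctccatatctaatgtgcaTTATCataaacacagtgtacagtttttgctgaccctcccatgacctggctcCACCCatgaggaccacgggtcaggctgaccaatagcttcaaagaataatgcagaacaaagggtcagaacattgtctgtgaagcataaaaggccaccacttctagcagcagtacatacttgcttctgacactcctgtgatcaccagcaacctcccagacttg
Klf1 promoter: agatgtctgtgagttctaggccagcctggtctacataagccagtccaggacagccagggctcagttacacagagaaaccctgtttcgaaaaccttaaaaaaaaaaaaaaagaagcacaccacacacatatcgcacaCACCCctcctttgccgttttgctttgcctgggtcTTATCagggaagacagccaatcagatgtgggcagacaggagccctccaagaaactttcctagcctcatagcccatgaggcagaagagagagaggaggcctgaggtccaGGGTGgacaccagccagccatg
Gata1 promoter: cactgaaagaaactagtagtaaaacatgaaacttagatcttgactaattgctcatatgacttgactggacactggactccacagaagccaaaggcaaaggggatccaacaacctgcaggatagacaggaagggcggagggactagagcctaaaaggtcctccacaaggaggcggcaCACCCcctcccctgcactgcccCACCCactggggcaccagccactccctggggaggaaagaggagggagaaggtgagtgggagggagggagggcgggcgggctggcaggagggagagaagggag

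In the Hba-x promoter, GATAA began 107 bases and CACCC 95 and 198 bases before the start site. The Hbb-y promoter held GATAA on the other strand at 162 bases and CACCC at 111 bases before the start, and the Klf1 promoter held the same pair at 80 and 114 bases, with a further CACCC on the other strand 29 bases after the start. The Gata1 promoter held CACCC at 74 and 52 bases and no GATAA. Promoters of Hba-a1 and Alas2 held both motifs as well. Among 32851 promoters of the same length, 25.4% held GATAA, 57.5% held CACCC and 12.6% held both, counted on both strands, where matches to the motifs may share 1 base. These matches describe letters in a window of sequence and were not related to the counts by any test.

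Hbb-y was the most abundant member in every library. Per kilobase of transcript (lengths from GENCODE M21), Hbb-y reached 7618 and 5095 CPM per kilobase in the number 1 libraries (WT, then mutant) and 3143 and 3012 in the number 2 libraries. On the same scale Hba-x reached 3071 and 2407 in number 1, then 780 and 680 in number 2. Hbb-bh1 followed with 1337 and 1042 in number 1, then 220 and 166 in number 2. This order of the 3 globins, with Slc4a1 next, held in all 4 libraries. Klf1 and Gata1 were lowest, Klf1 at 0.814 to 4.29 and Gata1 at 0.838 to 3.35 CPM per kilobase, and their order changed in mutant library 2. By counts Hbb-y ranked between 8 and 32 of all genes in the libraries.

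Hba-a1 and Hba-a2, the adult-type alpha genes, were listed at 0 in every library, and so were the adult-type beta genes Hbb-bs, Hbb-bt, Hbb-b1 and Hbb-b2. These zeros cannot be read as absent transcripts. Of the 50-base windows of the Hba-a1 transcript, 67.5% also occur in Hba-a2, and 65.8% of those of Hbb-bs occur in Hbb-bt, while 0 windows of Hba-x, Hbb-bh1, Hbb-y, Slc4a1, Klf1 or Gata1 occur in a transcript of another gene. Windows of Hbb-b1 and Hbb-b2 were not compared. Alas2, the erythroid enzyme of the first step of heme synthesis, has 2 accessions and shares no window with another gene. Of genes with several accessions 38.9% were listed at 0 in all libraries, against 30.2% of genes with 1 accession. How the reads were shared out is not given in the sources used here, and its part in these zeros was not tested. The other counted globin genes were low: the alpha-like Hbq1b had 58 and 28 counts in number 1 (WT, then mutant) and 16 in each number 2 library, Hbq1a had 0 to 9 and the beta-like Hbb-bh2 had 0 to 6.

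Counted globin transcripts made up a larger share of both number 1 libraries than of both number 2 libraries. At least 99.9% of them in every library came from Hba-x, Hbb-bh1 and Hbb-y. The summed globin share of library counts was 0.811% (exact 95% interval 0.807% to 0.814%, counting error only) in WT library 1. It was 0.275% (0.273% to 0.278%) in WT library 2. In the mutant libraries it was 0.579% (0.576% to 0.583%) for number 1 and 0.256% (0.253% to 0.258%) for number 2. The numbers did not overlap, and the mean difference, number 2 minus number 1, was −1.37 on the log2 scale, a 2.59-fold lower share. With 2 libraries against 2, the two-sided exact permutation test can give no p below 0.33, which is the value it gave. In pooled tissue, fewer red cells and less globin RNA per cell cannot be told apart. The adult-type globin genes were listed at 0, so a shift from embryonic to adult-type globins cannot be told apart from these either. The 3 non-globin members together differed in the same direction, with 0.0231% and 0.0179% of counts in number 1 (WT, then mutant) and 0.0070% and 0.0082% in number 2.

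Hbb-bh1, the early embryonic beta-like globin, differed most between the numbers. It was at 819.8 CPM in WT library 1, 638.8 CPM in mutant library 1, 134.9 CPM in WT library 2 and 101.9 CPM in mutant library 2. Both number 1 libraries were thus above both number 2 libraries, with a fitted log2 difference of −2.64 (SE 0.10), a 6.25-fold fall (edgeR adjusted p = 2.28e-10). Hba-x, the embryonic alpha-like globin, was at 2460 and 1928 CPM in the number 1 libraries (WT, then mutant) and at 625.1 and 544.8 CPM in the number 2 libraries. Its log2 difference was −1.92 (SE 0.10, edgeR adjusted p = 5.783e-09), 3.78-fold. Hbb-y, the later embryonic beta-like globin, differed least of the globins. It was at 4822 and 3225 CPM in the number 1 libraries and at 1989 and 1907 CPM in the number 2 libraries, a log2 difference of −1.04 (SE 0.12, edgeR adjusted p = 5.911e-06), 2.05-fold.

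Among the non-globin members, Slc4a1, the band 3 anion exchanger of the red cell membrane, was at 218.3 and 169.1 CPM in number 1 (WT, then mutant) and at 66.4 and 77.9 CPM in number 2. The log2 difference was −1.44 (SE 0.11, edgeR adjusted p = 1.496e-07). Klf1, the erythroid Krüppel-like factor, had 135 and 102 counts in number 1 and 33 and 21 in number 2, a log2 difference of −2.0 (SE 0.33, edgeR adjusted p = 0.0001887). Gata1, the GATA factor of red cells and megakaryocytes, had 131 and 70 counts in number 1 and 27 and 47 in number 2, a log2 difference of −1.27 (SE 0.37, edgeR adjusted p = 0.0135). The libraries of the 2 numbers did not overlap for any of the 6, but Gata1 came close, with 4.06 CPM in mutant library 1 and 2.79 CPM in mutant library 2.

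All 6 tested members passed the test and were lower in number 2, where 17.8% of all tested genes were called lower and 17.8% higher (35.6% in either direction). Non-overlapping libraries with number 2 lower were found for the 6 members and for 31.9% of all tested genes. The fitted log2 difference was below −1 for all 6 members and for 5.02% of all tested genes. The fit held genotype as a covariate, and the fitted median of all tested genes was 0.00014. Fits with a library left out had no genotype term, so the model and the libraries changed together. Without WT library 1 the members no longer passed, with log2 differences from −2.46 (Hbb-bh1) to −0.76 (Hbb-y). Without mutant library 1 only Hbb-bh1 and Hba-x passed (both edgeR adjusted p = 0.0465), among 6 called genes in all. Gata1 also missed the threshold without WT library 2 (edgeR adjusted p = 0.0617) and in DESeq2 (adjusted p = 0.0835). The log2 differences stayed below 0 in all of these fits.

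**Figure D1:**
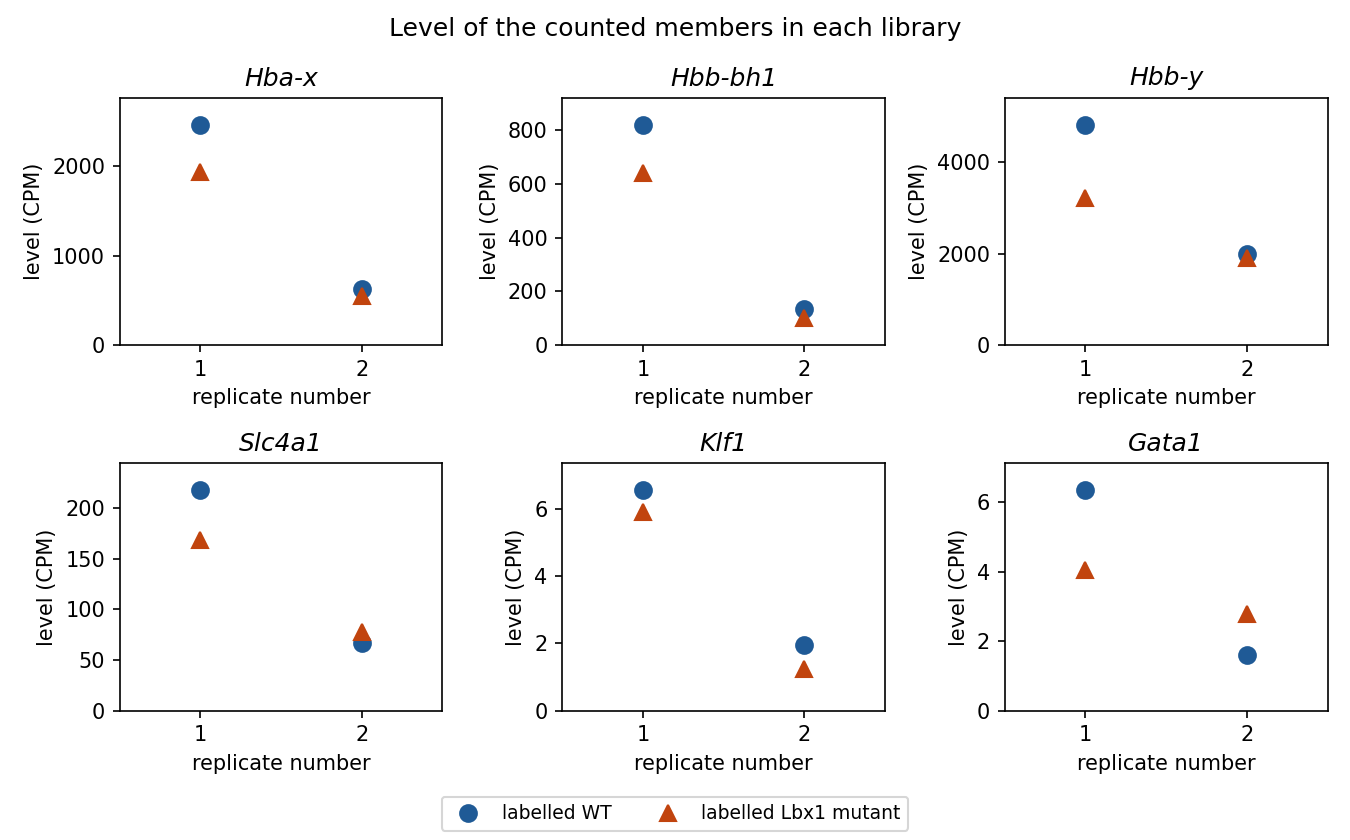
Level in CPM (vertical axes, linear from 0) of the 6 counted members by replicate number (horizontal axes), with circles for libraries labelled WT and triangles for libraries labelled Lbx1 mutant, 1 point per library. For each member both number 1 points lie above both number 2 points, as for Hbb-bh1 at 819.8 and 638.8 against 134.9 and 101.9 CPM.

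The makeup of the counted globin transcripts differed between the numbers along with their amount. Hbb-y outnumbered Hbb-bh1 5.88-fold in WT library 1 and 5.05-fold in mutant library 1, against 14.7-fold in WT library 2 and 18.7-fold in mutant library 2. This ratio is taken within a library, so it does not depend on scaling. Its mean was 3.05-fold higher in number 2 (log2 1.61; within-number SD 0.16 and 0.24 for numbers 1 and 2). Put as a share, Hbb-bh1 held 14.5% (exact 95% interval 14.3% to 14.7%) and 16.5% (16.3% to 16.8%) of the counts of Hbb-bh1 and Hbb-y in WT and mutant library 1. It held 6.35% (6.10% to 6.61%) and 5.07% (4.84% to 5.31%) in WT and mutant library 2.

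The alpha-like Hba-x lay between the beta-like genes in this respect. Its ratio to Hbb-bh1 was 3.0 and 3.02 in WT and mutant library 1, and 4.63 and 5.35 in WT and mutant library 2. Hbb-y outnumbered Hba-x 1.96-fold and 1.67-fold in WT and mutant library 1, and 3.18-fold and 3.50-fold in WT and mutant library 2. Set against the sum of Hbb-bh1 and Hbb-y, Hba-x was at 0.436 and 0.499 in number 1 and at 0.294 and 0.271 in number 2. Each of these ratios separated the numbers without overlap, at the exact permutation p of 0.33 that is the smallest possible. Since the adult-type alpha and beta genes were listed at 0, embryonic to adult-type ratios and a full alpha to beta balance could not be formed.

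Ratios to Slc4a1, a red cell gene outside the globin clusters, set the globins apart from one another. Hbb-bh1 counts per Slc4a1 count were 3.76 and 3.78 in WT and mutant library 1, and 2.03 and 1.31 in WT and mutant library 2. Hba-x per Slc4a1 was 11.3 and 11.4 in number 1, and 9.41 and 7.0 in number 2. Hbb-y per Slc4a1 went the other way, with 22.1 and 19.1 in number 1 and 29.9 and 24.5 in number 2. The 2 libraries of number 1 were nearly equal for Hbb-bh1 and Hba-x, with a log2 SD of 0.006 and 0.012. Those of number 2 were further apart, with a log2 SD of 0.448 and 0.302.

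**Figure D2:**
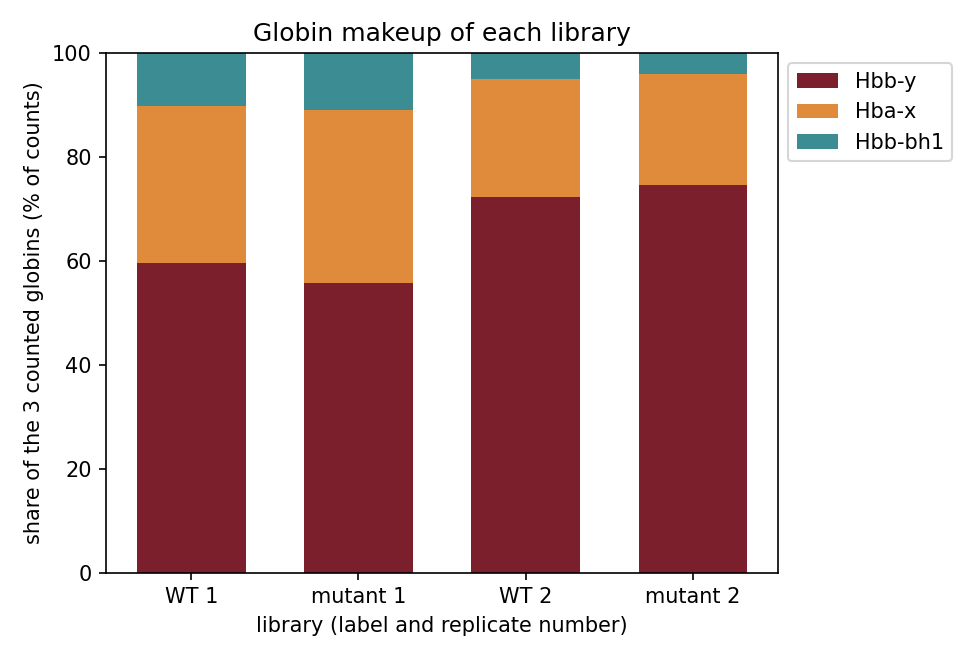
Share of each counted globin gene (vertical axis, percent of the summed counts of Hbb-y, Hba-x and Hbb-bh1, stacked to 100) in each library (horizontal axis, label and replicate number). Hbb-y held 59.5% and 55.7% in WT and mutant library 1 and 72.3% and 74.7% in WT and mutant library 2, while Hbb-bh1 held 10.1% and 11.0% against 4.91% and 3.99%.

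Fitted without replicate number, the members did not differ between the genotype labels beyond the spread within them. That spread includes the difference between the numbers. Of the 6 tested members, 0 passed edgeR's quasi-likelihood test for genotype, as did 0 of all 10757 genes (0%), with 55 genes at an unadjusted p under 0.05 and 33 and 61 by DESeq2 and limma-voom, which also called 0. All 6 fitted values were lower in the libraries labelled mutant, from −0.42 for Hbb-y to −0.22 for Slc4a1 on the log2 scale. The WT mean of Hbb-y was 3406 ± 2003 CPM and the mutant mean 2566 ± 932 CPM (SD, n = 2 each), a log2 difference of −0.42 (SE 0.52, edgeR adjusted p = 0.9998). For Hbb-bh1 the means were 477 ± 484 and 370 ± 380 CPM (SD, n = 2 each), a log2 difference of −0.37 (SE 1.15). For Hba-x they were 1542 ± 1297 and 1236 ± 978 CPM (SD, n = 2 each), a log2 difference of −0.33 (SE 0.87). The WT and mutant libraries overlapped for all 6 members, whereas 9.31% of all tested genes had both mutant libraries below both WT libraries. With the replicate number as a block, 0 of the 6 members and 0.855% of all tested genes were called. In that fit 1359 genes had an unadjusted edgeR p under 0.05. The log2 differences were then −0.334 (SE 0.117) for Hbb-y, −0.395 (SE 0.095) for Hbb-bh1 and −0.288 (SE 0.101) for Hba-x. Without WT library 1 all 6 fitted values were higher in the libraries labelled mutant. Without mutant library 2 this held for 5 of them. Both of these fits had no term for number and left 1 genotype with a single number. They therefore carry the difference between numbers and cannot show how stable the genotype directions are.

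The genotypes were also compared within each number, with 1 library each and no test. Hbb-y differed, mutant minus WT, by −0.58 in number 1 and −0.06 in number 2 on the log2 scale. Hba-x differed by −0.35 and −0.20, Hbb-bh1 by −0.36 and −0.40, and Klf1 by −0.15 and −0.64. These 4 were lower in the mutant library of both numbers, a pattern that 29% of all tested genes showed. Slc4a1 (−0.37 and 0.23) and Gata1 (−0.65 and 0.81) went opposite ways. The Hbb-y to Hbb-bh1 ratio differed between genotypes by a mean of 0.06 on the log2 scale (SD 0.94 in WT and 1.34 in mutant libraries, exact permutation p = 1), and by −0.22 and 0.34 within numbers 1 and 2. The globin share of counts differed by −0.30 (exact permutation p = 0.667), and by −0.48 and −0.11 within the numbers. Without WT library 1 the genotype differences of the ratio and of the share were −0.60 and 0.48, values that include the difference between numbers.

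Other genes of red cell biology were taken from lists of heme, membrane, transcription factor and other red cell genes, of which 34 besides the members were tested. In number 2, 15 of these 34 were called lower and 1 higher, where 17.8% of all tested genes were called lower and 17.8% higher, with a median log2 difference of −0.43 beside 0.00014 for all tested genes, and 0 were called for genotype. Without WT library 1 no gene of the 34 was called, and without mutant library 1 only 2 were.

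Membrane genes made up most of these calls. Of 13 tested besides Slc4a1, 9 were called lower in number 2, beside 17.8% of all tested genes, with a median log2 difference of −1.36. Rhd, of the Rh complex, was at 13.5 and 9.86 CPM in WT and mutant library 1 and at 3.54 and 3.03 CPM in WT and mutant library 2 (log2 −1.84, SE 0.24, edgeR adjusted p = 2.089e-05). Rhag, its partner, had a log2 difference of −1.60 (SE 0.26). Epb42, Kel, Ermap, Tmod1 and Cldn13 were called as well, at −1.11 to −2.26. Aqp1, a water channel that vessels and choroid plexus also make, had −0.36, Sptb −0.31, Xk 0.27 and Epb41, which has several accessions, −0.30, and none of these 4 was called.

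Hemgn, which encodes the erythroid nuclear protein hemogen, showed a larger difference than any member. Its counts were 482 and 484 in WT and mutant library 1 and 31 and 30 in WT and mutant library 2. That is 23.4 and 28.1 CPM against 1.83 and 1.78 CPM, a 14.3-fold fall (log2 −3.84, SE 0.22, edgeR adjusted p = 9.145e-09). Among the 6 tested genes of the list of other red cell genes, 3 were called lower, beside 17.8% of all tested genes: Hemgn, the erythroid gene Trim10 (log2 −1.24, SE 0.20) and the erythropoietin receptor gene Epor (log2 −0.76, SE 0.27, edgeR adjusted p = 0.0417). Trim10 was at 20.8 and 14.1 CPM in number 1 and at 7.26 and 7.54 CPM in number 2. Bpgm, Pklr and Car1 were listed at 0.

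Of 8 tested heme synthesis and iron import genes, which other cells also use, 2 were called lower in number 2, a count near the background of 17.8% of all tested genes. Slc25a37, the mitochondrial iron importer mitoferrin 1 that red cell precursors make in quantity, was at 188 and 136 CPM in WT and mutant library 1 and at 50.3 and 51.7 CPM in WT and mutant library 2 (log2 −1.67, SE 0.11). Urod, a cytosolic heme enzyme, had a log2 difference of −0.37 (SE 0.09, edgeR adjusted p = 0.00595), and Cpox (−0.32) and Abcb10 (−0.21) were not called.

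Among erythroid transcription factors and their partners, 7 were tested besides Klf1 and Gata1. In number 2, 1 of the 7 was called lower and 1 higher, near the background of 17.8% of all tested genes in each direction. Zfpm1, the GATA1 partner FOG1, was called lower in number 2 (log2 −0.47, SE 0.15, edgeR adjusted p = 0.0237). Bcl11a, a repressor of embryonic globin genes that neurons also make, was called higher, at 109 and 97.3 CPM in WT and mutant library 1 against 180 and 161 CPM in WT and mutant library 2 (log2 0.70, SE 0.08, edgeR adjusted p = 6.98e-06). It has several accessions, and its counts here come almost wholly from 1 of them. It is the most abundant gene of this list, whose summed level, Klf1 and Gata1 included, was 190 and 178 CPM in number 1 and 240 and 243 CPM in number 2. Ldb1 had 0.33, Nfe2 −0.70, Gata2 −0.08 and Sox6 0.10, all with several accessions and none called.

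**Figure D3:**
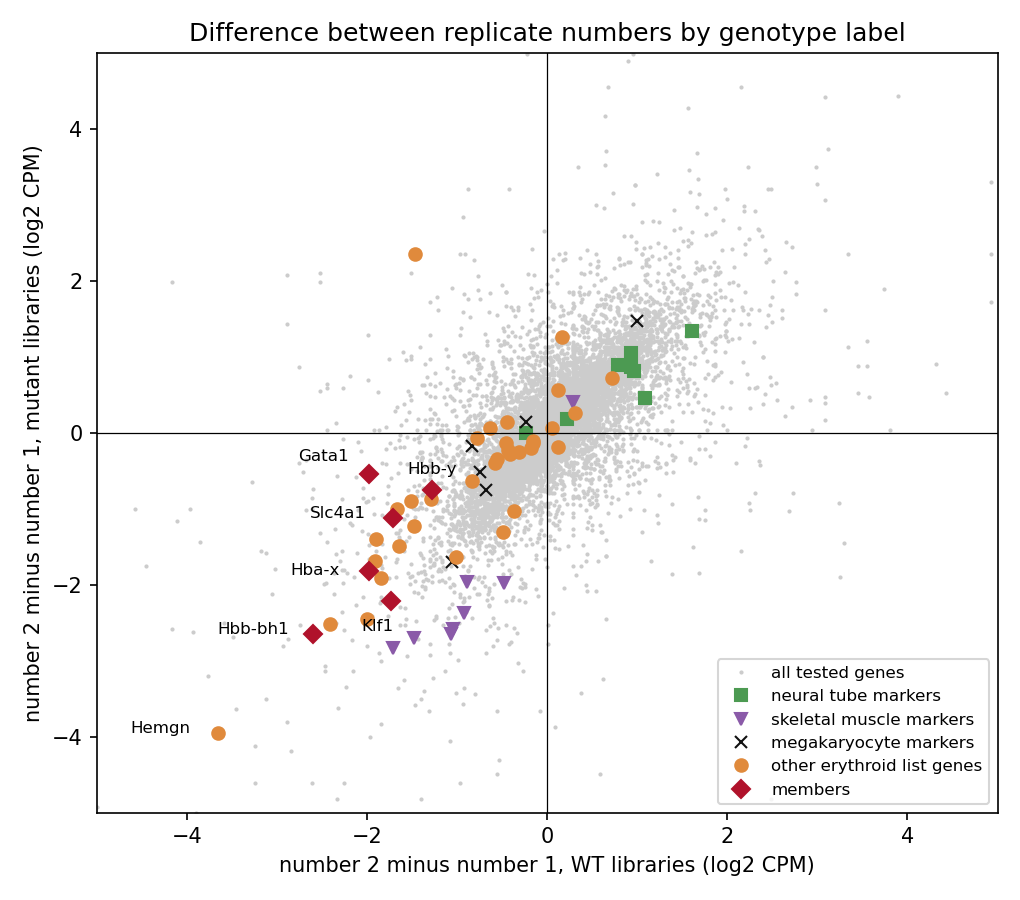
Difference in log2 CPM (0.5 counts added) between number 2 and number 1 in the WT libraries (horizontal axis) and in the mutant libraries (vertical axis), 1 point per tested gene, with list genes in colour and 32 genes beyond the axes at 5. The members lie at the lower left with most other erythroid genes and 7 of the 8 muscle markers, and the neural markers lie mostly in the upper right.

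Markers of other tissues also differed between the numbers, where 17.8% of all tested genes were called in each direction. The 3 most abundant skeletal muscle markers, Actc1, Myh3 and Myog, and the list as a whole were lower in number 2, with 7 of 8 genes called lower and summed levels of 929 and 796 CPM in WT and mutant library 1 against 441 and 139 CPM in WT and mutant library 2. Of 8 tested neural tube markers, 6 were called higher in number 2, and the summed level was 4588 and 4993 CPM in number 1 against 7143 and 8265 CPM in number 2. Mesenchyme and cartilage markers, led by Col3a1, Col1a2 and Col1a1, had summed levels of 6501 and 4699 CPM in number 1 and 4924 and 4385 CPM in number 2, with 4 of 8 called lower. Liver markers were low throughout, at 2.28 and 4.75 CPM in number 1 and 8.50 and 20.2 CPM in number 2. Both tested ones, Alb and Afp, were called higher in number 2, and Serpina1a and Ahsg were listed at 0. The part of these tissues in the erythroid differences was not tested.

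Blood and vessel markers did not all follow the red cell genes. Of all tested genes, 17.8% were called lower in number 2 and 17.8% higher. The endothelial and macrophage counts of calls below were near this background. Megakaryocyte and platelet markers, of cells that also use Gata1, summed to 83.4 and 75.4 CPM in WT and mutant library 1 and 51.8 and 46.9 CPM in WT and mutant library 2. Of 6 tested, Pf4 (log2 −0.74), Itga2b (−0.66) and Ppbp (−1.40) were called lower. Gp1bb, which has several accessions and only 21 to 58 counts, was called higher. Endothelial markers, led by Cdh5, Kdr and Tie1, summed to 477 to 529 CPM over the 4 libraries, with 0 of 5 tested called lower, 1 called higher and Pecam1, Tek, Emcn and Esam listed at 0. Macrophage and microglia markers, led by Csf1r, C1qb and Mrc1, summed to 99.4 to 131 CPM, with 0 of 8 called lower, 1 called higher and Aif1, Fcgr3 and Adgre1 at 0. Among blood progenitor markers, Spi1 was not called, Mpo was called lower (log2 −1.01, SE 0.35, edgeR adjusted p = 0.0356), Cd34 was too low to test, and Kit and Runx1 were listed at 0. For genotype, 0 genes of these marker lists were called.

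**Figure D4:**
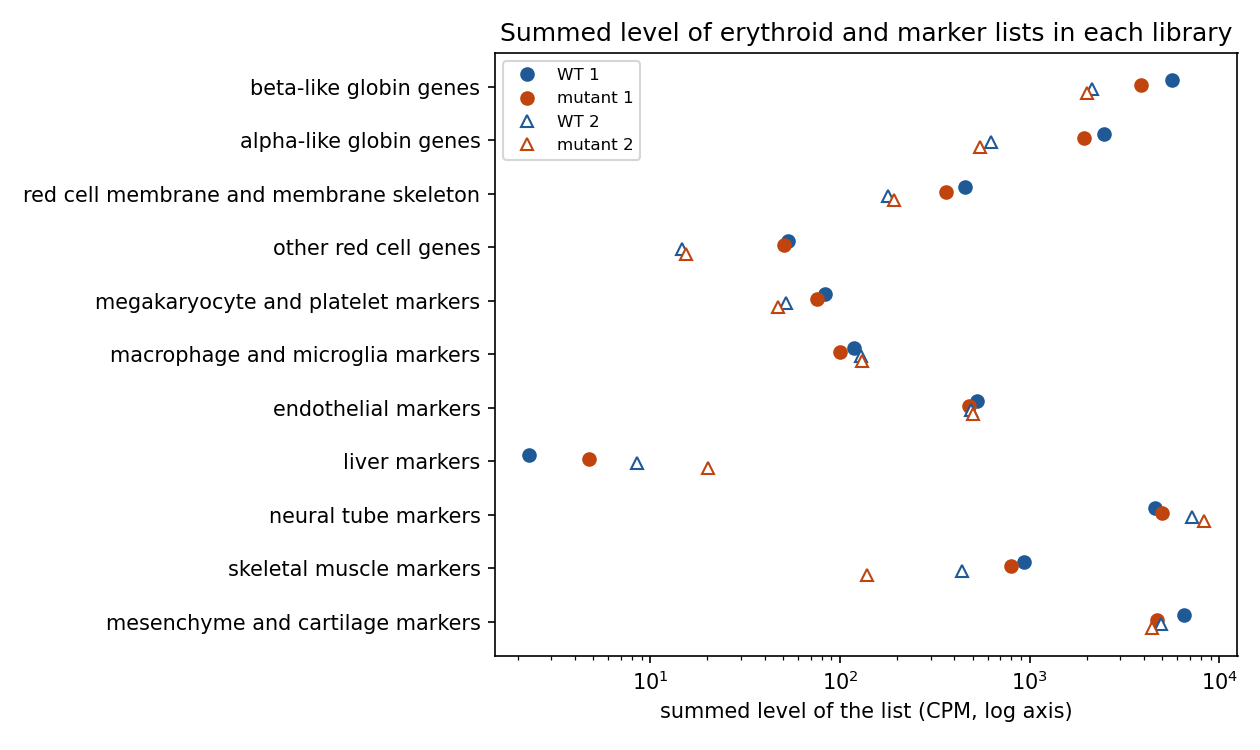
Summed level of each list (horizontal axis, CPM on a log axis) in each library, with filled circles for number 1, open triangles for number 2, blue for libraries labelled WT and orange for libraries labelled Lbx1 mutant. The globin, membrane and other red cell lists are higher in both number 1 libraries than in both number 2 libraries, as are the megakaryocyte and muscle lists, whereas the endothelial list spans 477 to 529 CPM.

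The genes outside all lists whose profile over the 4 libraries was nearest to the mean profile of the 6 members were sought among 9608 genes with a mean of at least 1 CPM. The measure was the root mean square distance of log2 levels centred on each gene's own mean. Aqp3 was nearest (distance 0.098), followed by Srd5a2 (0.101), Rspo1 (0.117), BC035044 (0.139) and Sln (0.147), and then Wdr86, Dlx2, Adamts18, Myrf and Epha1, up to 0.175. Aqp3, Srd5a2 and BC035044 were at only 0.475 to 0.593 CPM in the number 2 libraries, so their ranks are uncertain. Rspo1, a secreted activator of Wnt signalling, was at 15.9 and 12.3 CPM in WT and mutant library 1 and at 5.31 and 4.57 CPM in WT and mutant library 2. Sln encodes a muscle protein of the sarcoplasmic reticulum. The members themselves lay 0.116 (Hba-x) to 0.481 (Hbb-bh1) from their mean, so the nearest genes resembled it about as closely as Hba-x did.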

How the data were processed

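RNA-seq counts of 4 libraries were used, 2 labelled WT and 2 labelled Lbx1Δ/Δ. The authors deposited unnormalised read counts for each RefSeq accession, as the whole numbers in the files show. TopHat2 2.1.1, featureCounts 4.6.0.1 and edgeR 3.4.3 with build mm9 are named in the submitters' processing notes; strand setting, annotation and treatment of reads shared by transcripts: not given in the sources used here. Of 41411 accessions, 41218 were named from RefSeq (GRCm38.p6), 97 from GENCODE M21 and 96 stayed unnamed (0.325% to 0.649% of counts), and counts were summed by symbol. Transcript lengths come from GENCODE M21 and may differ from those of mm9.

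Genes were filtered with filterByExpr (minimum count 10, minimum total 15), scaled by TMM and tested with edgeR's quasi-likelihood test (edgeR 4.0.16, R 4.3.3), two-sided, with Benjamini-Hochberg adjustment over all tested genes at 0.05. Genotype was fitted alone, and replicate number was fitted with genotype as a covariate. Each SE was derived from the log2 difference and its F statistic (their quotient after taking the square root of F). CPM use the plain library total. Shares and ratios were compared by exact permutation tests, and intervals are Clopper-Pearson. Alternatives were RLE, upper-quartile and total scaling, DESeq2 1.42.0, limma-voom (limma 3.58.1), no filter and globin genes left out. Further ones were the replicate block for genotype, number fitted without genotype, and leaving out each library. Fits with a library left out held the tested factor alone. The tests were tried on simulated data with a fixed spread between libraries and no effect of the other factor. That trial does not show how the tests perform on these libraries. Named genes were all members and other globin genes, up to 4 genes of the smallest p per erythroid list and contrast, the 3 most abundant markers per list, and the 10 nearest profiles; further genes, such as those called within a list or listed at 0, were named after their values were seen. Members and lists were chosen with earlier results of these data known. Each replicate is a pool of neural tubes from 1 litter, with 1 pool per genotype and number. The edgeR p-values for genotype measure the spread between these 4 pools. Those for number measure how the number difference varies between the genotypes, with variance shared across genes. They do not measure the spread between litters. Some genes that this rule names are not reported here.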

Additional observations from a re-analysis of the deposited data

Results flagged for a closer look

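Several genotype differences went opposite ways within the separate replicate numbers, each with 1 library per genotype and number, and the difference between numbers was not tested. Mutant minus WT on the log2 scale, Slc4a1 differed by −0.37 in number 1 and 0.23 in number 2, and Gata1 by −0.65 and 0.81. The summed share of Slc4a1, Klf1 and Gata1, which is mostly Slc4a1, differed by −0.37 and 0.23. Of the ratios, Hbb-y to Hbb-bh1 differed by −0.22 and 0.34, Hbb-y to Hba-x by −0.23 and 0.14, and Hba-x to the sum of Hbb-bh1 and Hbb-y by 0.20 and −0.12.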

How the results depend on the processing

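The difference between replicate numbers kept its direction for all 6 tested members, the globin and non-globin shares and the 4 globin ratios under every alternative run. Of 45 member values under other settings 44 stayed on the same side of the threshold, the exception being Gata1 in DESeq2, and 11 of 24 with a library left out no longer passed. The count of called genes between numbers was 3833, and 1 to 3917 with a library left out. Where 1 library is left in a number or genotype, it is assumed to vary like the others.

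Genotype differences of the members changed with the library left out, but these comparisons had no term for number. Each left 1 genotype with a single number, so the ranges include the difference between numbers. With each library left out in turn, the log2 difference, mutant minus WT, ranged from −1.52 to 1.0 for Hba-x, −2.25 to 1.48 for Hbb-bh1, −0.93 to 0.38 for Hbb-y, −0.89 to 0.91 for Slc4a1, −1.79 to 0.89 for Klf1 and −0.91 to 1.11 for Gata1, which was also 0.021 in limma-voom. The globin share ranged from −1.07 to 0.48 and the non-globin share from −0.93 to 0.79. The ratios ranged from −0.88 to 1.01 (Hbb-y to Hbb-bh1), −0.40 to 0.48 (Hba-x to the sum of Hbb-bh1 and Hbb-y), −0.30 to 0.52 (Hba-x to Hbb-bh1) and −0.58 to 0.49 (Hbb-y to Hba-x). The latter pair, and the ratios to Slc4a1, were chosen after seeing the data. The count of genes called for genotype was 0 in each of these fits.

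With the replicate number as a block, 92 genes were called for genotype (29 higher) and 0 of the 6 members, Hbb-bh1 being nearest at −0.40 (SE 0.10, edgeR adjusted p = 0.0697). Same-numbered libraries deviated together from their genotype means (Pearson r = 0.623 across 10757 genes, which are not independent), but with 2 numbers and no label on a shared litter the block is not the study's design. The Hba-a1 to Hba-x ratio and the sum with Hba-a2 could not be run, because both genes are listed at 0, and the globin members have no value where globin genes were left out. Depth does not limit the globin shares; for Klf1 and Gata1, with 21 to 135 counts, it does.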
